A study of Mus musculus with 12 samples.

Results

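The genes that mark naive T cells and their traffic through lymph nodes were followed in bulk RNA from mouse lymph nodes. They are the receptors Ccr7, S1pr1 and Il7r, the transcription factors Klf2, Tcf7 and Lef1, and the surface enzyme Art2b. They were chosen by name, with earlier results of these data known. They are 7 of the 55487 genes in the count table, and all 7 were abundant enough to be tested. The 12 libraries form 4 groups of 3. Mice either had B16F10 cells, a mouse melanoma line, placed in the tongue (T) or did not (NT), and the pain-sensing nerves that supply the tumour-draining lymph node were either inhibited (NDE) or left alone (NC). Crossing the 2 factors gives NT NC and T NC with intact nerves, and NT NDE and T NDE with inhibited nerves. The labels describe the 3 repetitions of each as biologically independent. The sources used here do not give how the nerves were inhibited, the strain and age of the mice or the number of mice behind a library, so the p-values measure the spread between these libraries.

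Naive T cells enter lymph nodes from the blood and are drawn into the T cell zone by CCR7, which binds the chemokines CCL19 and CCL21. They leave along a gradient of sphingosine-1-phosphate sensed by S1PR1, and while they circulate they depend on interleukin 7, received through IL7R. KLF2 is a transcription factor that drives S1pr1 and keeps T cells quiescent, whereas TCF1 (from Tcf7) and LEF1 bind DNA with beta-catenin and Groucho-type partners and maintain the naive and memory-precursor state. Art2b encodes an ADP-ribosyltransferase anchored to the T cell surface that uses extracellular NAD to modify neighbouring proteins, among them the ATP receptor P2RX7. Several of these genes are not limited to naive T cells: Ccr7 is also used by B cells and migratory dendritic cells, S1pr1 and Klf2 by endothelium, and Il7r by innate lymphoid cells.

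The libraries held 16862953 to 24467873 counts over genes. Markers of lymph node lymphocytes were abundant in all 12 libraries, at 1956 to 2522 CPM (counts scaled to the size of the library) summed over 15 pan T cell genes and 3864 to 5377 CPM over 10 B cell genes. In 3 libraries salivary gland genes stood out. They summed to 30808 CPM in replicate 3 of NT NC, to 43147 CPM in replicate 3 of T NDE and to 1532 CPM in replicate 2 of NT NC, against 12.1 to 61.9 CPM in the other 9 libraries. Markers of melanoma cells summed to 8.53 to 24.3 CPM over all 12 libraries.

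The members' levels kept a clear order over the series. Per kilobase of exon, Tcf7 was the highest member at 201 ± 16.8 CPM per kb (SD, n = 12), followed by Klf2 at 149 ± 11.7 CPM per kb. Ccr7 and S1pr1 overlapped each other, at 102 ± 9.44 and 100 ± 7.08 CPM per kb, and Il7r followed at 38.4 ± 5.60 CPM per kb. Lef1 and Art2b were lowest and also overlapped, at 14.1 ± 1.66 and 13.6 ± 2.01 CPM per kb. All other neighbours in this order were separated over the 12 libraries. The order depends on the divisor, the length of all annotated exons of a gene together, 8788 bases for Lef1 and 2828 for Art2b. Before this division Lef1 ran from 105 to 158 CPM and Art2b from 32.3 to 50.3 CPM, without overlap.

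The members lie on 5 chromosomes of the mm10 assembly. Ccr7 occupies chromosome 11, positions 99144196 to 99155077, on the minus strand. Tcf7 lies on the same chromosome at 52252371 to 52283014, minus strand. S1pr1 lies on chromosome 3 at 115710433 to 115715072, minus strand, and Lef1 on the same chromosome at 131110471 to 131224356, plus strand. Il7r spans 9505788 to 9530176 of chromosome 15, minus strand. Klf2 spans 72319033 to 72321656 of chromosome 8, plus strand, and Art2b spans 101576970 to 101585600 of chromosome 7, minus strand. Tcf7 overlaps the annotated genes Gm26551 and A630014C17Rik, and Lef1 overlaps Gm43352 and Gm42449. Gm26551 and Gm42449 lie on the same strand as the member they overlap, and A630014C17Rik and Gm43352 on the opposite strand. Neither the counter nor its strand setting is given in the sources used here, so how any shared reads were assigned is not known.

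Sequences just upstream of a RefSeq start are shown for 3 members, because Art2b and Il7r differed most under nerve inhibition and Klf2 least. The Art2b and Il7r stretches lie inside the gene spans given above, between exons, and only the Klf2 stretch lies before its gene. Each is the part of the 250 bases before a RefSeq start (assembly GRCm38.p6) that lies outside the GENCODE exons, printed along the gene's own strand. Capitals mark a motif match, and the printed stretches of Art2b and Klf2 held none.
Art2b, chr7:101581180-101581411, minus strand: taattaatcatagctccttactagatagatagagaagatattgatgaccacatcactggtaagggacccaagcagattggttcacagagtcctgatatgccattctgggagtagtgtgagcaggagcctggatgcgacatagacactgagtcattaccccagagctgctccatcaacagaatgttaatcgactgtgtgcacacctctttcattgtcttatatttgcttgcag
Il7r, chr15:9529877-9530040, minus strand: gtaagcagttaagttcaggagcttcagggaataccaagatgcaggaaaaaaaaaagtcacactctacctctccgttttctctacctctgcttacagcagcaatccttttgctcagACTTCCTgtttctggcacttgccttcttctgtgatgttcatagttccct
Klf2, chr8:72318812-72319032, plus strand: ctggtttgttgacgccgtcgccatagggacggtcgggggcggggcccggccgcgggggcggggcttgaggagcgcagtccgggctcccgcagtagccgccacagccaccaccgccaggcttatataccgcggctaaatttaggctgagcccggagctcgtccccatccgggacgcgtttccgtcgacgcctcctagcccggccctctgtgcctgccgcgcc
Their G and C content was 44.0% for Art2b, 43.9% for Il7r and 71.5% for Klf2. The motifs of 4 factor families were searched on both strands of 32851 RefSeq windows of 250 bases. The ETS motif (AGGAAGT or CGGAAGT) was present in 12.2% of windows and lies 49 bases upstream of that RefSeq start of Il7r, on the opposite strand. The FOXO motif (GTAAACA) occurred in 3.17% of windows, the KLF motif (CCACCC) in 28.1% and the TCF/LEF motifs (CTTTGAT or CTTTGTT) in 8.06%. Tcf7 and Lef1 have several such windows, while the shares above are per single window. Including the exonic bases, the Klf2 window and some windows of Tcf7 and Lef1 held a KLF match. The Tcf7 window with the KLF match and a Lef1 window without one held an ETS match, and another Tcf7 window held no match. No window of the 5 members with a RefSeq entry held a FOXO or TCF/LEF match.

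Nerve inhibition gave the only call among the members. Averaged over mice with and without tumour cells, all 7 members had lower fitted levels in NDE than in NC nodes, where 46.3% of all tested genes were lower. Scaling to T cell content moved the median of all tested genes from 0.01 to 0.14. On that scale Klf2 at 0.12 and Tcf7 at 0.01 were above 0, and all 7 members were below that median. This scaling moves all genes by a nearly common amount, so it could hardly change their place against the median. Only Art2b passed the test, by edgeR's quasi-likelihood test with Benjamini-Hochberg adjustment over 17301 genes. It fell by 21.9% (log2 fold change -0.36, SE 0.058, adjusted p = 0.044). By that rule 15 of all tested genes were lower, 0.0867% of them, and 2 were higher, 0.0116%. Without an adjustment, 6 of the 7 members had an edgeR p under 0.05, all lower, against 4.73% of all tested genes. The members' median log2 fold change was -0.15, beside 0.01 for all tested genes. The members share the same 12 libraries and were chosen with earlier results of these data known. The 6 are therefore not independent observations, and the share of all tested genes is not a test of them. Without the 3 libraries with salivary gland RNA, which leaves NT NC with 1 library, the members stood between -0.32 (Art2b) and -0.05 (Klf2), and none passed the edgeR test.

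**Figure D1:**
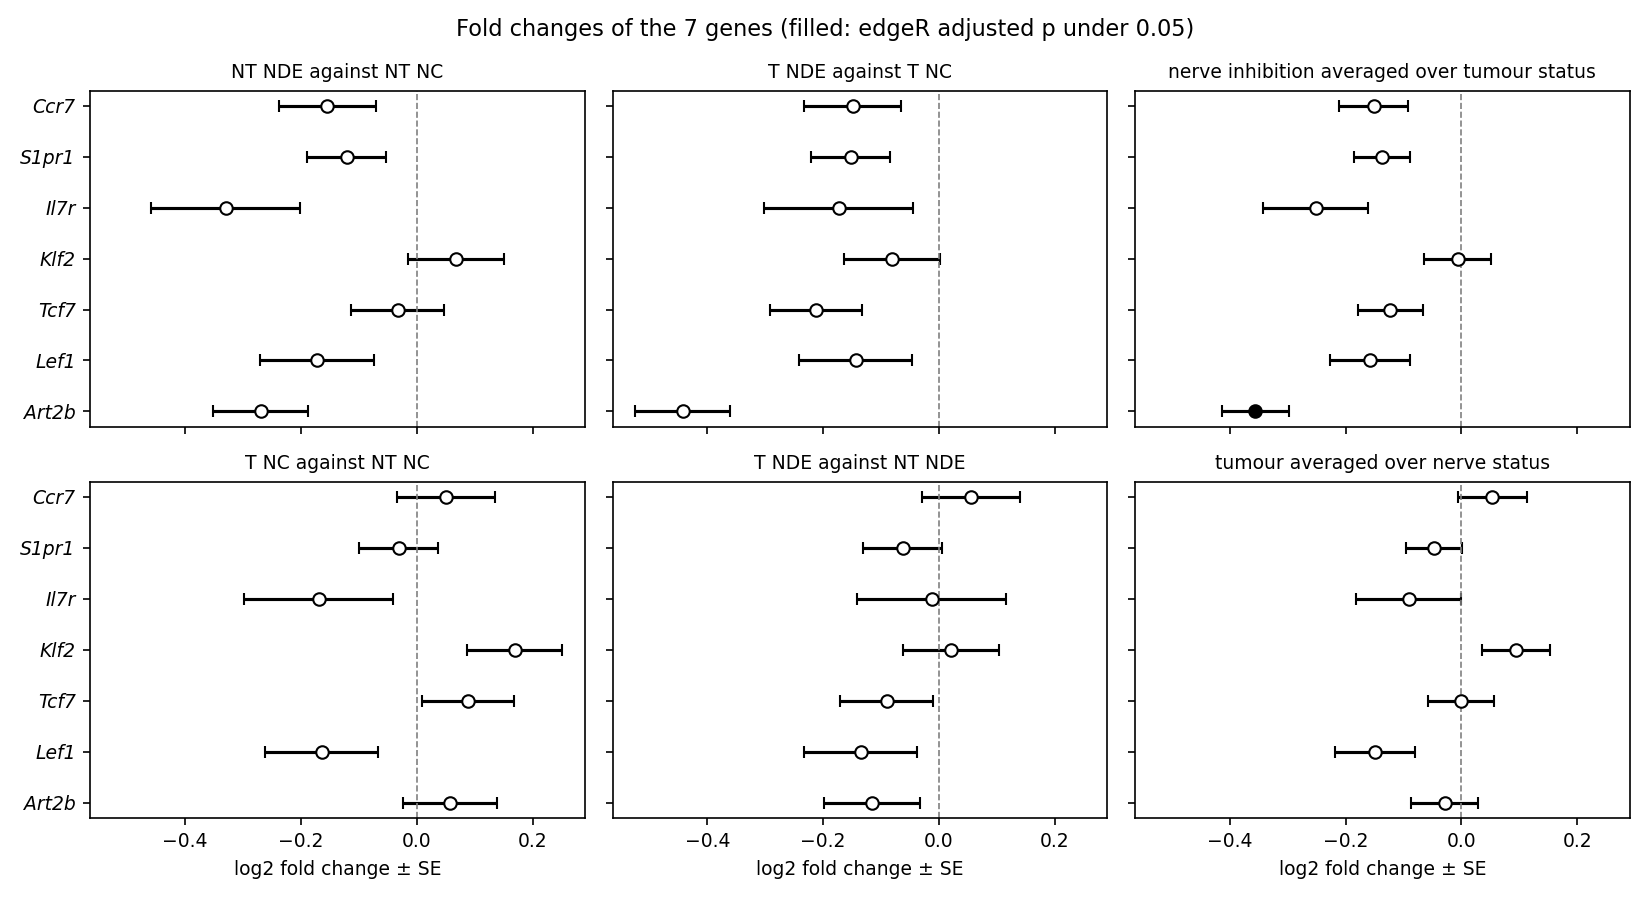
Log2 fold change of each member with its standard error, by comparison. In the average nerve comparison Art2b stands at -0.36 and Klf2 at -0.01, and the other members lie between -0.25 and -0.12. The filled point marks an edgeR adjusted p under 0.05. Klf2 and Tcf7 are above 0, and below the median of all genes, when scaled to T cell content.

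Of the receptors, Ccr7 stood at 236, 191 and 202 CPM in NT NC and at 238, 215 and 198 CPM in T NC. After nerve inhibition it stood at 187, 200 and 178 CPM in NT NDE and at 203, 196 and 188 CPM in T NDE. Of the 6 NC libraries, 3 exceeded every NDE library, and the ranges of NC and NDE overlapped. The averaged nerve difference of Ccr7 was -0.15 on the log2 scale (SE 0.060, edgeR adjusted p = 0.463).

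S1pr1, the exit receptor, stood at 330, 326 and 311 CPM in NT NC and at 298, 298 and 294 CPM in NT NDE. These 2 groups did not overlap, which held for 9.18% of all tested genes in the lower direction. In tumour-bearing mice it stood at 335, 323 and 288 CPM in T NC and at 307, 281 and 264 CPM in T NDE, and those ranges overlapped. Its averaged nerve difference was -0.14 (SE 0.048, edgeR adjusted p = 0.406).

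Il7r, the interleukin 7 receptor chain, had the widest spread among the receptors. It stood at 205, 191 and 223 CPM in NT NC and at 155, 187 and 150 CPM in NT NDE. These groups did not overlap, which held for 9.18% of all tested genes in the lower direction. In tumour-bearing mice it stood at 201, 193 and 156 CPM in T NC and at 170, 134 and 184 CPM in T NDE, and the ranges overlapped. Its averaged nerve difference was -0.25 (SE 0.091, edgeR adjusted p = 0.432), the second largest of the members after Art2b.

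**Figure D2:**
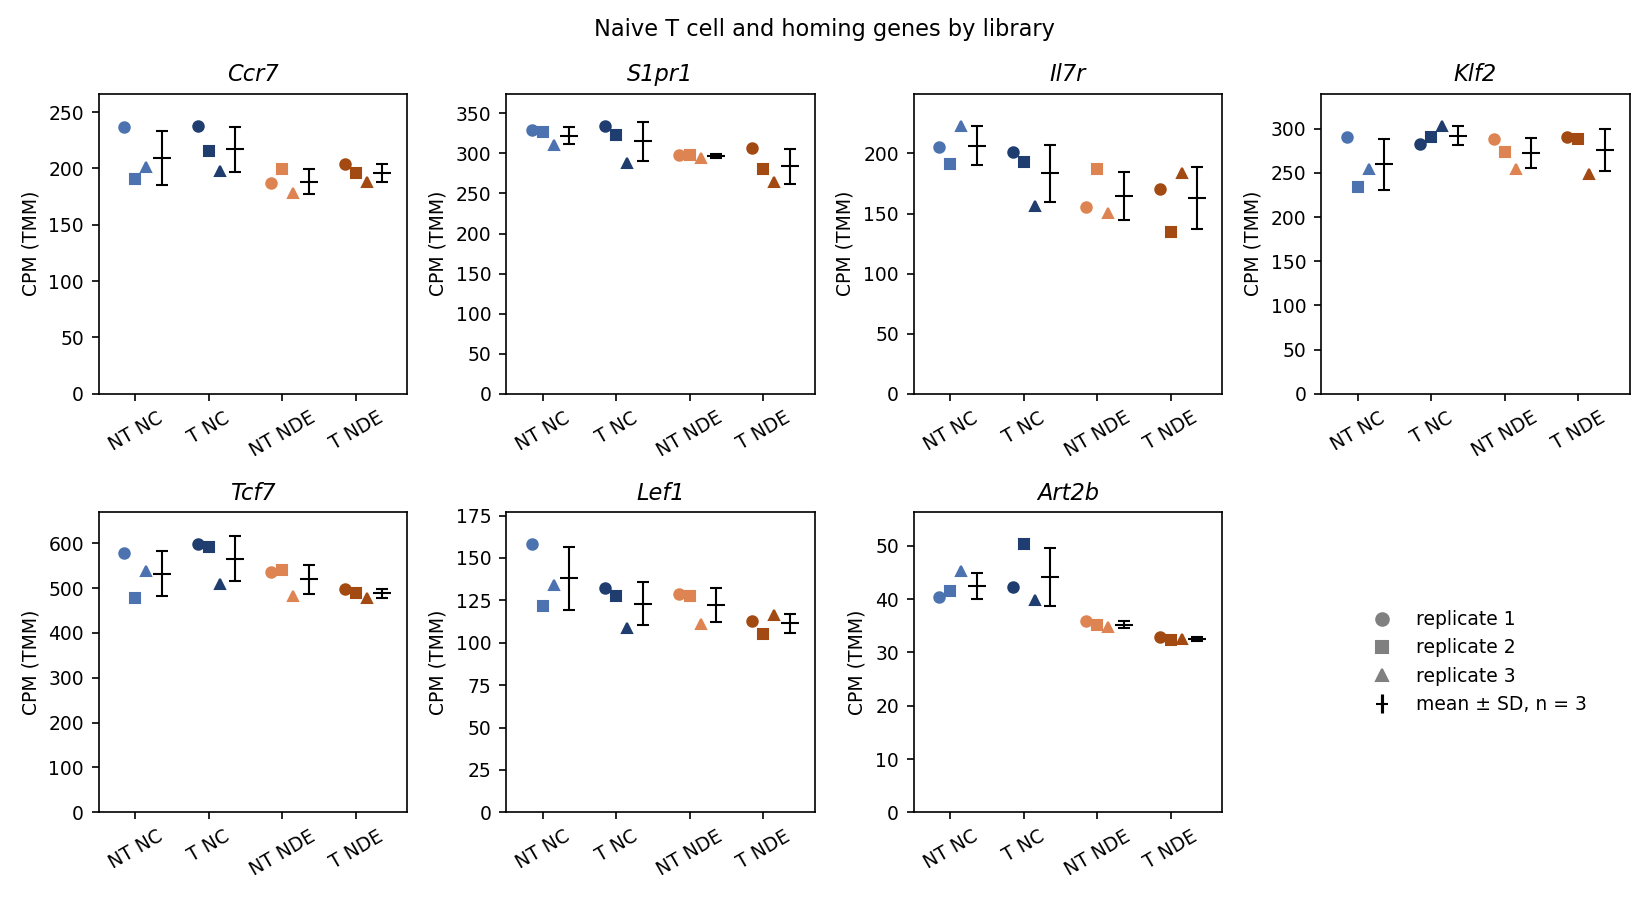
CPM of the 7 members in each of the 12 libraries, by group, with the group mean and SD (n = 3) and the marker shape giving the replicate number. Art2b is the only member whose 6 NDE libraries, 32.3 to 35.9 CPM, all lie under its 6 NC libraries, 39.9 to 50.3 CPM.

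Klf2, the regulator of S1pr1, had the smallest nerve difference of the members. With intact nerves it stood at 291, 234 and 254 CPM (NT NC) and at 282, 290 and 303 CPM (T NC). The values of 234 and 254 CPM are those of the NT NC libraries with salivary gland RNA, whose salivary genes summed to 1532 and 30808 CPM. Whether that RNA bears on the Klf2 level was not tested. The remaining NT NC value, 291 CPM, lies within the T NC range. With inhibited nerves it stood at 288, 274 and 255 CPM (NT NDE) and at 291, 288 and 249 CPM (T NDE). No NDE library lay below the lowest NC library. Its averaged nerve difference was -0.01 (SE 0.059, edgeR adjusted p = 0.986).

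Tcf7 stood at 598, 591 and 508 CPM in T NC and at 497, 490 and 478 CPM in T NDE. The tumour-bearing groups thus did not overlap, which held for 4.60% of all tested genes in the lower direction. Without tumour cells the groups overlapped, at 579, 479 and 538 CPM in NT NC and 536, 541 and 483 CPM in NT NDE. For Tcf7 the averaged nerve difference was -0.12 (SE 0.056, edgeR adjusted p = 0.540).

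Lef1, of the same TCF/LEF family as Tcf7, stood with intact nerves at 158, 122 and 134 CPM (NT NC) and 133, 128 and 109 CPM (T NC). With inhibited nerves it stood at 129, 128 and 111 CPM (NT NDE) and 113, 105 and 117 CPM (T NDE). Every neighbouring pair of groups overlapped. The averaged nerve difference of Lef1 was -0.16 (SE 0.069, edgeR adjusted p = 0.522).

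Art2b separated the groups most clearly. It stood at 40.5, 41.6 and 45.3 CPM in NT NC and at 42.3, 50.3 and 39.9 CPM in T NC. With the nerves inhibited it stood at 35.9, 35.1 and 34.7 CPM in NT NDE and at 32.9, 32.3 and 32.4 CPM in T NDE. All 6 NDE libraries lay below all 6 NC libraries, a separation that 0.295% of all tested genes showed in the lower direction. Group means were 44.2 ± 5.47 CPM in T NC, 42.5 ± 2.48 in NT NC, 35.2 ± 0.598 in NT NDE and 32.5 ± 0.310 in T NDE (SD, n = 3 each). The 2 NC groups overlapped, and the other neighbours in this order did not. Of all tested genes, 9.18% had NT NDE below NT NC without overlap, and 4.33% had T NDE below NT NDE. These levels rest on 599 to 1090 counts per library, for which counting error alone is up to 4.09% of the level.

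The Art2b call depended on single libraries and on the test, while its direction did not. Leaving out each library in turn gave log2 fold changes of -0.39 to -0.31, with adjusted p from 0.0251 to 0.161. The call held only without T NC replicate 3 or T NDE replicate 1 and was lost without any of the other 10 libraries. Without the 3 libraries that held salivary gland RNA the difference was -0.32 (edgeR adjusted p = 0.139). DESeq2 gave an adjusted p of 7.72e-05, and limma-voom 0.0620.

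**Figure D3:**
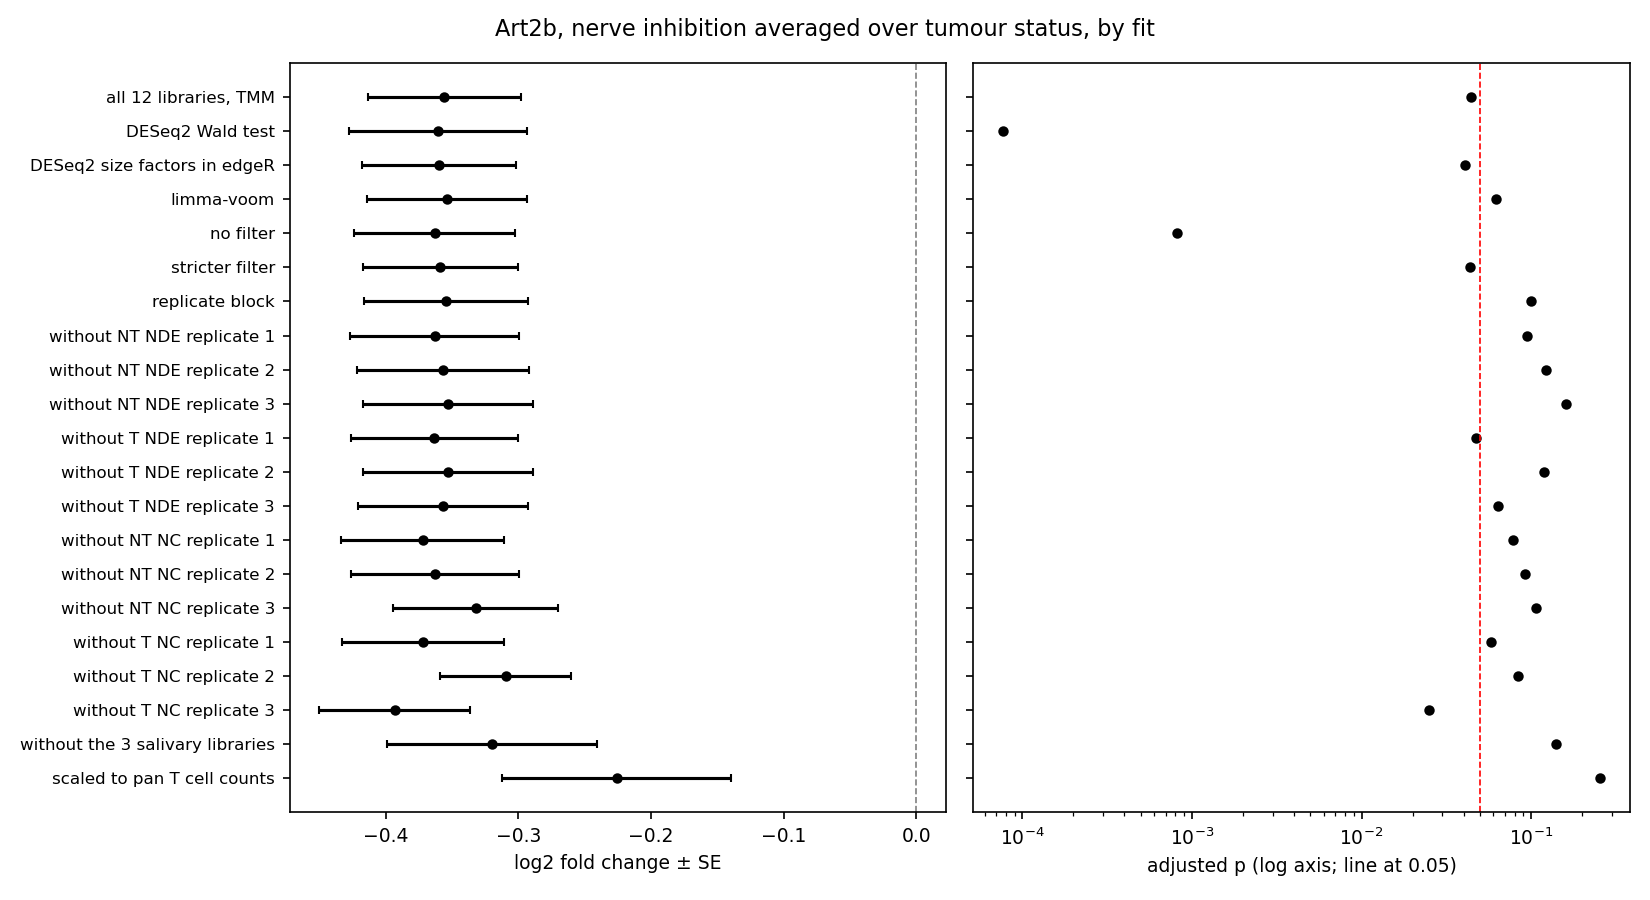
Log2 fold change of Art2b under nerve inhibition in each fit tried, with its standard error on the left and the adjusted p on a log axis on the right. The direction is lower in every fit shown, from -0.39 to -0.23, and the smallest value in size is the one scaled to pan T cell counts.

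Reads of Art2b could be divided with its near copy Art2a-ps, whose transcript is 86.7% identical over 1211 bases. Art2a-ps stood at 3.72 ± 0.399 CPM in NT NC, 3.69 ± 0.728 in T NC, 3.16 ± 0.101 in NT NDE and 2.83 ± 0.591 in T NDE (SD, n = 3 each). Its difference of -0.31 (SE 0.150) had an edgeR adjusted p of 0.556, and how the counting assigned shared reads is not given in the sources used here.

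Nerve inhibition was also tested within each tumour status. In tumour-bearing mice (T NDE against T NC), 7 of 7 members were lower, beside 47.3% of all tested genes. Scaled to T cell content, which moved the median of all genes from 0.01 to 0.19, Ccr7, S1pr1, Il7r, Klf2 and Lef1 stood between 0.02 and 0.09, above 0 and below that median. Of the 7, 0 passed the edgeR test, as 0% of all tested genes did. Art2b stood at -0.44 (SE 0.082, adjusted p = 0.203), and Tcf7, S1pr1 and Art2b had unadjusted p under 0.05 with lower levels, beside 3.07% of all tested genes. DESeq2 called Art2b there with an adjusted p of 0.0040, and limma-voom called no member. Tcf7 and Art2b did not overlap between these groups, as 4.60% of all tested genes did not in that direction. In mice without tumour cells (NT NDE against NT NC), 6 of 7 members were lower, beside 48.9% of all tested genes. Scaled to T cell content, Tcf7 stood at 0.04, above 0 and below the median of all genes at 0.08. Of the 7, 0 passed, as 0% of all genes did. There Art2b stood at -0.27 (SE 0.082, adjusted p = 0.301), Il7r at -0.33 (SE 0.13, adjusted p = 0.422) and Klf2 at 0.07 (SE 0.083, adjusted p = 0.823). Without the 3 libraries with salivary gland RNA, which leaves NT NC with 1 library, Art2b stood at -0.20 and Klf2 at -0.095. Il7r and Art2b had unadjusted p under 0.05, beside 4.71% of all tested genes lower, and neither DESeq2 nor limma-voom called a member.

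Whether nerve inhibition acted differently with and without tumour cells was tested directly, as the difference of the 2 nerve effects. No member passed by edgeR, as 0% of all tested genes did, and none had an unadjusted p under 0.05, where 3.95% of genes did on the lower and 3.16% on the higher side. Neither DESeq2 nor limma-voom called a member. Art2b stood at -0.17 (SE 0.12, adjusted p = 0.780), Tcf7 at -0.18 (SE 0.11, adjusted p = 0.775) and Il7r at 0.16 (SE 0.18, adjusted p = 0.886). Leaving out each library in turn gave -0.25 to -0.07 for Art2b, -0.26 to -0.11 for Tcf7 and 0.05 to 0.28 for Il7r.

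Tumour cells without nerve inhibition separated no member. Between T NC and NT NC, 4 members were higher and 3 lower, beside 48.0% and 52.0% of all tested genes. The 2 groups overlapped for every member, where 7.78% of genes were higher and 7.23% lower without overlap, and 0 of 7 passed the edgeR test, as 0% of all tested genes did. Klf2 stood at 0.17 (SE 0.083, adjusted p = 0.657), Lef1 at -0.16 (SE 0.098, adjusted p = 0.701) and Il7r at -0.17 (SE 0.13, adjusted p = 0.752). Leaving out each library in turn gave 0.10 to 0.26 for Klf2, -0.25 to -0.05 for Lef1 and -0.24 to -0.06 for Il7r. These fits always keep an NT NC library with salivary gland RNA, and such libraries held the lowest Klf2 levels of that group. Whether that RNA bears on the Klf2 level was not tested. No member had an unadjusted p under 0.05, where 4.58% of genes were higher and 3.23% lower by that rule, and neither DESeq2 nor limma-voom called one. Averaged over nerve status, Lef1 alone had an unadjusted p under 0.05, at -0.15 (SE 0.069, adjusted p = 0.992), beside 2.24% of all tested genes. T NDE and NT NDE overlapped for every member but Art2b, and 4.33% of all tested genes likewise did not overlap in that direction. In that comparison 0 members and 1 gene, 0.00578%, passed the edgeR test, and no member had an unadjusted p under 0.05, where 2.05% of genes were lower and 1.66% higher by that rule.

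Members were next set against the T cell content of each node. The sum of 15 pan T cell genes ran from 2081 to 2522 CPM in NC and from 1956 to 2313 CPM in NDE, so the ranges overlapped. All 15 were lower on average with the nerves inhibited, where 46.3% of all tested genes were lower. Their median was -0.14 on the log2 scale, beside 0.01 for all tested genes, and none passed the test. Cd28 was furthest from zero by its p, at -0.21 (SE 0.051, edgeR adjusted p = 0.217). In bulk RNA, fewer T cells and less RNA per T cell cannot be told apart.

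As a share of the pan T cell sum, Tcf7 varied least. Its coefficient of variation over 12 libraries dropped from 8.40% in CPM to 2.35% as a ratio, and that of Ccr7 from 9.22% to 4.60%. Klf2 did not become steadier, at 7.86% and 8.10%. Scaling to the pan T cell sum shifted all genes by a nearly common amount. Distances from the median of all tested genes in the averaged nerve comparison therefore stay nearly the same by construction. They do not test whether a difference remains once T cell content is taken into account. Art2b lay at -0.37 from that median with TMM and at -0.36 with T cell scaling. Il7r lay at -0.26 and -0.25 from it, Tcf7 at -0.13 and -0.13, and Klf2 at -0.02 and -0.02. Tested against 0 on the T cell scale, Art2b stood at -0.23 (SE 0.086, edgeR adjusted p = 0.255) and did not pass. On that scale Il7r stood at -0.12, Ccr7 at -0.02, Lef1 at -0.02 and S1pr1 at -0.01, with Tcf7 at 0.01 and Klf2 at 0.12.

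**Figure D4:**
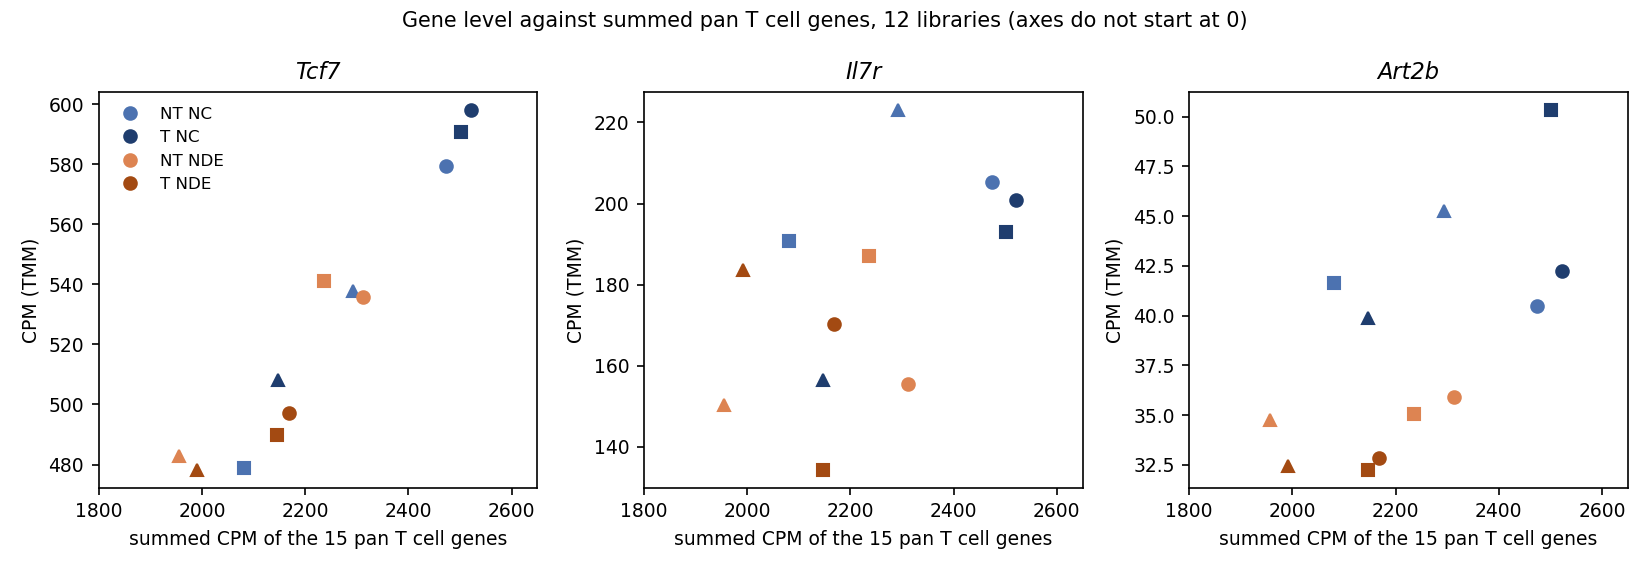
CPM of Tcf7, Il7r and Art2b against the summed CPM of 15 pan T cell genes, 1 point per library, coloured by group and with the marker shape giving the replicate number; the axes do not start at 0. Tcf7 keeps the narrowest band around the T cell sum, and the 6 NDE libraries of Art2b lie below its 6 NC libraries.

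In the 5 wider pathway lists around Ccr7, Il7r, S1pr1, the KLF family and the TCF and LEF factors, no gene passed the test under averaged nerve inhibition. Counts of lower genes in these and the following lists stand beside 46.3% of all tested genes that were lower in that comparison. Of 14 genes of the CCR7 and lymph node entry list, Ccr7 included, 11 were higher and 3 lower under averaged nerve inhibition, and none passed the edgeR test. Chst4, a sulfotransferase of high endothelial venules, stood at 0.33 (SE 0.098, adjusted p = 0.329), and Fut7, a fucosyltransferase, at 0.25 (SE 0.088, adjusted p = 0.406). Ligand genes Ccl19 and Ccl21a have near-identical copies and rested on single libraries, so their values are uncertain.

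Of 16 interleukin 7 signalling genes, Il7r included, 10 were higher and 6 lower, and none passed. Jak3, the kinase bound to the common gamma chain, stood at 0.26 (SE 0.065, edgeR adjusted p = 0.255). Of 14 sphingosine-1-phosphate genes tested, 10 were higher and 4 lower, and none passed. S1pr4, another lymphocyte receptor for the lipid, stood at -0.12 (SE 0.057, adjusted p = 0.556).

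The Kruppel-like family and the partners of Tcf7 were likewise mixed. Of 14 KLF genes tested, 9 were higher and 5 lower, and none passed. Klf10 stood at 0.29 (SE 0.094, edgeR adjusted p = 0.374), and Klf3 at -0.10 (SE 0.040, adjusted p = 0.457). Klf14 and Klf17 had no counts in any library. Among 16 genes of the TCF and LEF list, Tcf7 and Lef1 included, 8 were higher and 8 lower, and none passed. Satb1, a chromatin organiser of T cells, stood at -0.13 (SE 0.052, adjusted p = 0.464).

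Art2b was the only one of 10 ADP-ribosyltransferase and extracellular NAD genes that passed, with 5 higher and 5 lower in all. P2rx7, the ATP receptor that its enzyme modifies, stood at 0.06 (SE 0.058, edgeR adjusted p = 0.831).

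Of 20 naive T cell quiescence genes, 16 were lower and 4 higher, where 46.3% of all tested genes were lower, with a median of -0.05. Of the 20, 1 passed as lower, where 0.0867% of all tested genes did. That gene was Slfn1, a Schlafen gene tied to T cell quiescence. The list was chosen with earlier results of these data known, so the shares of all tested genes are not a test of it. Slfn1 ran from 79.7 to 111 CPM in the 6 NC libraries and from 61.0 to 73.2 CPM in the 6 NDE libraries, with no overlap. Its log2 fold change was -0.50 (SE 0.061, edgeR adjusted p = 0.0128). Tdrp and Slfn2 also separated NC from NDE without overlap, at -0.41 (adjusted p = 0.0917) and -0.24 (adjusted p = 0.255), a separation that 0.295% of all tested genes showed in that direction, and were picked out after their values were seen.

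Markers of other cell types are given beside these results, and their part in them was not tested. Under averaged nerve inhibition 9 of 10 B cell genes and 9 of 10 blood endothelial genes were higher, where 46.3% of all tested genes were lower. The B cell sum ran from 3909 to 5041 CPM in NC and from 3864 to 5377 CPM in NDE. Innate lymphoid genes, of cells that also use Il7r, had a median of 0.30, with 6 of 8 higher and a sum of 98.6 to 139 CPM in NC and 106 to 153 CPM in NDE. Migratory dendritic cell genes, of cells that also use Ccr7, had a median of -0.13, with 7 of 8 lower and a sum of 1394 to 2049 CPM in NC and 1354 to 1616 CPM in NDE. No defining marker of these types was at 0 in all libraries. CD4 and CD8 coreceptor genes were lower in 3 of 3 cases, with Cd8b1 at -0.25 (SE 0.068, edgeR adjusted p = 0.290). T cell activation genes were lower in 12 of 17 cases, with Id2 at 0.16 and Tnfrsf9 at -0.29. Their sum went the other way, with means of 844 CPM in NC and 889 CPM in NDE. Its ranges overlapped, at 723 to 936 CPM in NC and 862 to 947 CPM in NDE. None of the genes in these lists passed the test.

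Lastly, the genes whose log2 CPM most resembled each member over the 12 libraries were listed among 11216 candidates, as a description. All 12 points share the same libraries, groups and depths. Tcf7 went with Trac (Pearson r = 0.98) and Lck (0.97), both T cell receptor signalling genes, and with Arl4c (0.96). Ccr7 went with Cd3g (0.96), a chain of the T cell receptor complex, and with Tnfrsf9 (0.95) and Ccl5 (0.94). Klf2 went with Ltb (0.94), which encodes lymphotoxin beta, and with Matk (0.92) and Usf2 (0.91). S1pr1 went with Epsti1 (0.92), Nudt16 (0.92) and Add3 (0.91), and Il7r with Il1rl2 (0.91), Pdk1 (0.88) and Cd226 (0.88). Lef1 went with Gpr157 (0.91), Cd4 (0.89) and Prkca (0.89). Art2b went with Mboat1 (0.89), with Themis (0.87), a T cell receptor signalling gene, and with Eif5a2 (0.86). Among the members themselves, r ran from -0.29 between Il7r and Klf2 to 0.83 between Ccr7 and Tcf7.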

How the data were processed

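The authors deposited a table of raw counts per gene for 12 lymph node libraries, made from total RNA with mRNA libraries, per the labels' protocols. The submitters' processing notes name HISAT2 2.0 and the mm10 build; the sources used here do not give the counter, its annotation or its strand setting. Ensembl identifiers were matched to symbols for 55141 of 55487 rows; Adrbk1 of the gene lists had no match.

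The members and gene lists were chosen with earlier results of these data known. Counts were normalised by TMM and tested with edgeR 4.0.16 (robust quasi-likelihood, filterByExpr with a minimum count of 10 and total of 15, leaving 17301 genes), with 1 mean per group over all 12 libraries and Benjamini-Hochberg adjustment at 0.05 in 7 comparisons. CPM were computed from the counts with TMM library sizes (factors 0.967 to 1.01), and divided by the GENCODE M21 exon length for levels between genes. With 3 libraries against 3, an exact permutation test cannot go below p = 0.1, so none was used. That floor does not hold for the averaged comparisons, of 6 libraries against 6, and no permutation test was run there either. All 7 members were named in each comparison. From each wider list, genes past the threshold were named, or, where none passed, up to 3 with the smallest p. One gene that this rule names is not reported here. The 3 genes most like each member were taken by Pearson correlation of log2(CPM + 0.5) among genes with mean CPM of at least 5.

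Alternatives were DESeq2 1.42.0, its size factors in edgeR, limma-voom (limma 3.58.1), no filter, a filter of 1 CPM in 3 libraries, a replicate block, only the libraries compared, each library left out, the 3 libraries with salivary gland genes left out, and scaling to pan T cell counts. The edgeR scripts were tested on simulated data. Art2b and Art2a-ps transcripts were compared with BLAST 2.17.0. RefSeq promoter entries matched 5 of the 7 members, and Ccr7 and S1pr1 were not matched.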

Additional observations from a re-analysis of the deposited data

How the results depend on the processing

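In bulk nodes of 3 libraries a group, the calls were few and moved with the processing, and the call on Art2b was lost without any of 10 of the 12 libraries. For T NC against NT NC, 0 genes passed (40 with DESeq2, 4 with no filter, 7 with the salivary libraries left out, 1 with scaling to pan T cell counts, 0 to 3 on leaving out each library in turn). For T NDE against T NC, 0 genes passed (44 with DESeq2, 12 with no filter, 1 with the salivary libraries left out, 4 with scaling to pan T cell counts, 0 to 1 on leaving out each library in turn). For NT NDE against NT NC, 0 genes passed (138 with DESeq2, 43 with no filter, 3 with the replicate block, 37 with only the 6 libraries compared, 33 with the salivary libraries left out, 0 to 7 on leaving out each library in turn). For T NDE against NT NDE, 1 gene passed (17 with DESeq2, 3 with the replicate block, 28 with the salivary libraries left out, 0 to 4 on leaving out each library in turn). For the difference of the nerve effects, 0 genes passed (43 with DESeq2, 1 with no filter, 1 with the replicate block, 3 with the salivary libraries left out, 0 to 2 on leaving out each library in turn). For averaged nerve inhibition, 17 genes passed (130 with DESeq2, 5 with limma-voom, 41 with no filter, 1 with the replicate block, 49 with the salivary libraries left out, 3 with scaling to pan T cell counts, 0 to 30 on leaving out each library in turn). For averaged tumour status, 0 genes passed (6 with DESeq2, 2 with no filter, 66 with the salivary libraries left out, 1 with scaling to pan T cell counts, 0 to 22 on leaving out each library in turn). For T NDE against T NC, 0 members passed (1 with DESeq2, 1 with no filter). For averaged nerve inhibition, 1 member passed (0 with limma-voom, 0 with the replicate block, 0 with the salivary libraries left out, 0 with scaling to pan T cell counts, 0 to 1 on leaving out each library in turn). The gene count for averaged nerve inhibition moved by over 1.5 times without any 1 library but T NC replicate 3, and its highest, 30, came without T NDE replicate 1; the 22 for averaged tumour status came without T NDE replicate 3. The cause of these changes was not tested. Whether the replicate numbers pair the libraries is not given in the labels. Same-numbered libraries of different groups correlated with a median r of 0.011 over 18 pairs (range -0.13 to 0.52, 3 over 0.1). Of the 12 libraries, 4 correlated best with their own number. The value of 0.52 is between replicate 3 of NT NC and replicate 3 of T NDE, both with salivary gland RNA. Such RNA enters these correlations, so they cannot decide whether libraries were paired. With the replicate block Art2b stood at -0.35 in averaged nerve inhibition (edgeR adjusted p = 0.0998).

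Signs turned in 60 of the alternative values of 22 member results, none of them called, and the largest main value among them was 0.17 in size and the largest alternative 0.12. Scaling to pan T cell counts also moved the median of all genes, to 0.14 in averaged nerve inhibition, 0.19 in T NDE against T NC and 0.11 in the difference of the nerve effects, so its sign changes are read against that shift. In T NC against NT NC, Ccr7 at 0.051 moved to -0.11 with the salivary libraries left out, -0.013 with scaling to pan T cell counts and -0.020 to 0.15 on leaving out 1 library, and S1pr1 at -0.031 moved to -0.075 to 0.040 on leaving out 1 library. In T NC against NT NC, Tcf7 at 0.089 moved to -0.023 with the salivary libraries left out, and Art2b at 0.057 moved to -0.017 with scaling to pan T cell counts and -0.042 to 0.13 on leaving out 1 library. In T NDE against T NC, Ccr7 at -0.15 moved to 0.036 with scaling to pan T cell counts, and S1pr1 at -0.15 moved to 0.031 with scaling to pan T cell counts. In T NDE against T NC, Il7r at -0.17 moved to 0.022 with scaling to pan T cell counts, and Klf2 at -0.081 moved to 0.092 with scaling to pan T cell counts. In T NDE against T NC, Lef1 at -0.14 moved to 0.047 with scaling to pan T cell counts. In NT NDE against NT NC, Klf2 at 0.067 moved to -0.095 with the salivary libraries left out and -0.0017 to 0.16 on leaving out 1 library, and Tcf7 at -0.033 moved to 0.044 with scaling to pan T cell counts and -0.10 to 0.033 on leaving out 1 library. In T NDE against NT NDE, Il7r at -0.013 moved to 0.036 with scaling to pan T cell counts and -0.10 to 0.11 on leaving out 1 library, and Klf2 at 0.020 moved to -0.022 to 0.094 on leaving out 1 library. In the difference of the nerve effects, Ccr7 at 0.0045 moved to -0.0093 with no filter and -0.092 to 0.075 on leaving out 1 library, and S1pr1 at -0.032 moved to 0.051 with the salivary libraries left out, 0.078 with scaling to pan T cell counts and -0.099 to 0.019 on leaving out 1 library. In the difference of the nerve effects, Klf2 at -0.15 moved to 0.084 with the salivary libraries left out, and Lef1 at 0.029 moved to -0.082 to 0.11 on leaving out 1 library. In averaged nerve inhibition, Klf2 at -0.0067 moved to 0.12 with scaling to pan T cell counts and -0.042 to 0.038 on leaving out 1 library, and Tcf7 at -0.12 moved to 0.0095 with scaling to pan T cell counts. In averaged tumour status, Ccr7 at 0.053 moved to -0.0079 with the salivary libraries left out, and Tcf7 at -0.00082 moved to 0.0047 with DESeq2, 0.0045 with DESeq2 size factors, 0.00053 with limma-voom, 0.0099 with no filter, 0.0046 with the stricter filter and -0.035 to 0.042 on leaving out 1 library. In averaged tumour status, Art2b at -0.029 moved to 0.017 with the salivary libraries left out and -0.077 to 0.011 on leaving out 1 library.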
